A study of Mus musculus with 200 samples.

Results

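The genes described here encode proteins that the fetal liver secretes into blood plasma, together with *Hnf4a*, a nuclear receptor of hepatoblasts that is known to activate many of them. The set was given as a list of 33 gene symbols, a rule that uses no threshold on a measured value although earlier results of these data were known when it was drawn up, and all 33 were found among the 22033 genes of the expression tables. By role they were 3 genes of the albumin family, transthyretin, 10 apolipoproteins, 3 fibrinogen chains, 4 genes of clotting, fibrinolysis and the kinin system, 3 serpins, 2 fetuins, 4 genes of the inter-alpha-trypsin inhibitor family, vitronectin and hemopexin, and *Hnf4a*. They lie on 14 chromosomes.

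Hepatoblasts bud from the foregut endoderm and begin to make plasma proteins while the liver is still being colonized by blood cells. Alpha-fetoprotein is the main plasma protein of the fetus and is replaced by albumin later in life, apolipoproteins carry lipids, and the serpins and inter-alpha-trypsin inhibitors hold proteases in check. The visceral yolk sac makes many of the same proteins, the choroid plexus is a known site of transthyretin, and macrophages and glia also express *Apoe*.

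Expression was measured by 3SEQ, a method that sequences the 3′ ends of polyadenylated RNA, in single whole mouse embryos at embryonic day 11.5 from which membranes and placenta had been removed. F1 embryos came from C57BL/6J (B6) mothers and CAST/EiJ (Cast) fathers (B6 × Cast, 8 embryos of 2 litters) or from the reciprocal cross (Cast × B6, 8 embryos of 2 litters). N2 embryos came from B6 mothers and F1 fathers (B6 × F1, 89 embryos of 17 litters) or from F1 mothers and B6 fathers (F1 × B6, 65 embryos of 12 litters), so that each carried B6/B6 or B6/Cast at a given locus. The mitochondrial genome was that of B6 throughout the N2, also with F1 mothers. Somite number, the count of paired body segments and a measure of developmental stage, was recorded for 147 of the 154 N2 embryos, from 42 to 57, and for 13 of the 16 F1 embryos.

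The total count over genes ran from 15703888 to 38234229 in the F1 embryos and from 245220 to 5370322 in the N2 embryos, with an N2 median of 2297773. Levels are given in RPM, the reads of a gene per 1000000 reads on genes. A count of 0 allowed a level of up to 1.31 RPM at the median N2 depth and up to 12.2 RPM in the shallowest N2 embryo (3 reads, counting error only), against 0.0996 RPM at the median F1 depth. A mean of at least 5 RPM in the N2 embryos was required for a test there, which 23 of the 33 genes passed. The other 10 were *Gc*, *Apoa4*, *Apob*, *Apoc3*, *Apoh*, *Fgg*, *Plg*, *Kng1*, *Fetub* and *Itih1*. In the F1 embryos 27 genes had that mean.

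Promoter sequence was taken from RefSeq (GRCm38.p6), which held 300-base windows around the start of 27 of the 33 genes. It was searched on both strands for short motifs of factors known in liver. The FOXA motif TGTTTAC was present in 4 of these 27 genes, 14.8%, and in 4.05% of all 27025 genes with a window. The matches follow because they lie in apolipoprotein genes and a fetuin gene of the set, with the motif, or its reverse complement, in capitals and each sequence written 5′ to 3′ on the strand of the gene.
Apoa2, chr1:171224967-171224993, plus strand: gtctaaccctTGTTTACtccagcctga
Apoe, chr7:19698387-19698413, minus strand: gcaaggggagGTAAACAgacctttggg
Apoh, chr11:108395216-108395242, plus strand: ctttagcttcTGTTTACagaaatgaaa
Fetub, chr16:22919976-22920002, plus strand: actaaccactTGTTTACggaagactaa

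Counted from the annotated start, the motif began at position -77 in *Apoa2*, -5 in *Apoe*, -71 in *Apoh* and -236 in *Fetub*. The TATA box TATAAA was found in 7 genes, 25.9% against 15.7% of all. Of the HNF4 motifs, CAAAGTCCA was found in 0 genes against 0.555% of all and CAAAGTTCA in *Apoa4* alone, 3.70% against 0.448%. The C/EBP motif TTGCGCAA was found in 0 genes against 0.207%. Other spellings were searched as well, and those given were chosen after their counts were known, so these shares describe the windows and were not tested. The FOXA factors themselves were low in whole embryos. *Foxa1* had 0.534 ± 1.07 RPM, *Foxa2* 1.05 ± 1.81 RPM and *Foxa3* 4.95 ± 2.16 RPM (mean ± SD, n = 154).

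The first comparison asked how the plasma protein genes changed with stage among the F1 embryos, which form 4 litters of different age. Nearly all were higher in the older litter of each cross. *Afp* measured 288.6, 331.4, 357.7 and 228.0 RPM in the 4 embryos of the youngest litter (Cast × B6, 41 to 43 somites, 1 without a somite number) and 453.1, 485.1, 519.8 and 536.2 RPM in the older Cast × B6 litter (46 to 48 somites). In the 5 embryos of the younger B6 × Cast litter (48 to 50 somites) *Afp* measured 327.2, 348.1, 473.2, 485.2 and 550.9 RPM, and in the 3 embryos of the oldest litter (58 to 63 somites) 981.1, 1247 and 1323 RPM. The 2 litters of each cross did not overlap, while the 2 litters of intermediate age did.

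Albumin, the main carrier protein of adult plasma, spread over a wider range. *Alb* measured 22.8, 33.96, 49.04 and 49.8 RPM in the youngest litter, 81.8, 85.5, 88.2 and 148.8 RPM in the next, 76.04, 85.5, 108.4, 123.6 and 148.4 RPM in the third, and 373.0, 413.7 and 423.3 RPM in the oldest. The mean of the oldest litter was 3.72-fold that of its sister litter, and the older Cast × B6 litter had 2.60-fold the mean of the younger. Fetuin A, the protease inhibitor family member encoded by *Ahsg*, had the widest range, from 0.662 to 1.27 RPM in the youngest litter and from 27.98 to 49.2 RPM in the oldest. *Apoe* changed less, from 247.1 to 291.5 RPM in the youngest litter and from 612.9 to 729.5 RPM in the oldest, with a ratio of 1.24 between the B6 × Cast litters.

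**Figure D1:**
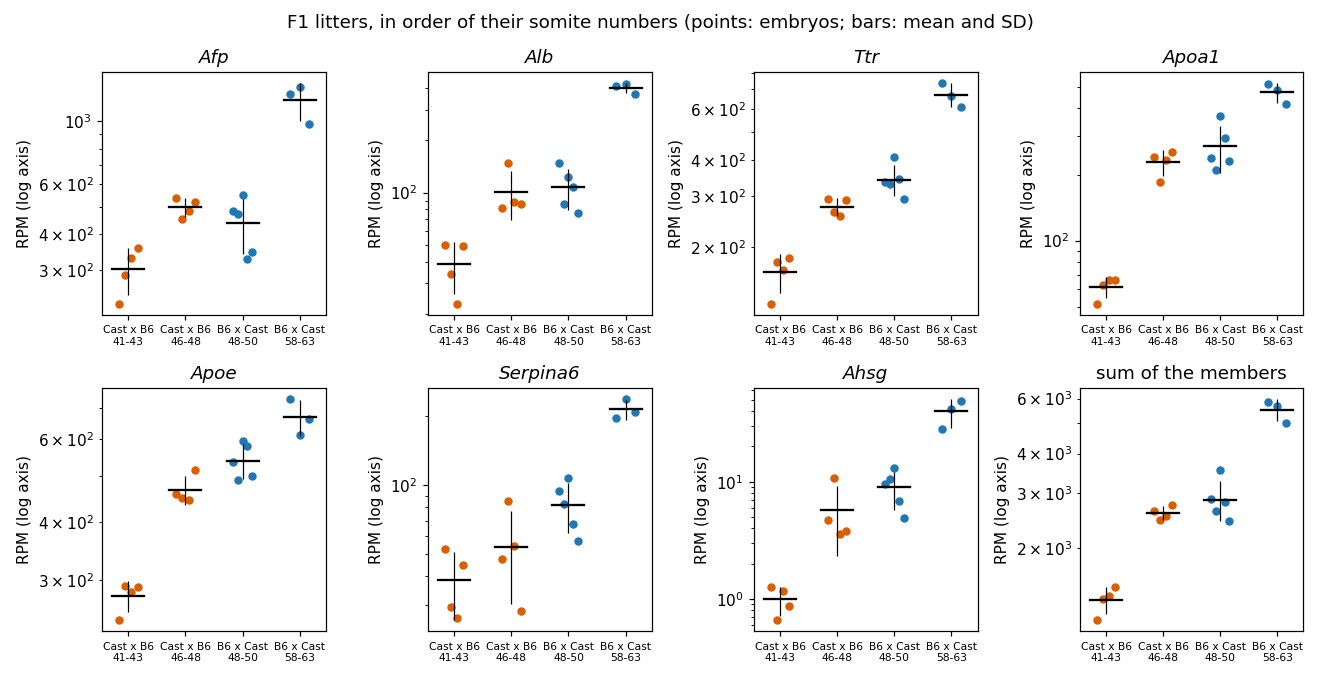
Level of 7 plasma protein genes and of the sum of all 33 in single F1 embryos (RPM, log axis), with the 4 litters ordered by somite number on the horizontal axis, points for embryos, and bars for the mean and SD of each litter. The 3 embryos of the oldest litter lay above the 5 of the younger B6 × Cast litter in every panel, and the summed level rose from a mean of 1362 RPM in the youngest litter to 5522 RPM in the oldest.

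Of the 27 genes with a mean of 5 RPM, 25 had every embryo of the oldest litter above every embryo of the younger B6 × Cast litter, where 25% of all 9728 genes did so. In Cast × B6 it was 23 of 27, against 21.9% of all genes. None of the 27 was lower in the older litter without overlap in either cross, where 7.06% and 7.28% of all genes were. The median ratio of litter means was 2.06 in B6 × Cast, against 1.12 for all genes, and 1.80 in Cast × B6, against 1.04. The overlapping genes were *Fga* and *Vtn* in B6 × Cast and *Fgg*, *F2*, *Serpina6* and *Itih2* in Cast × B6. In whole embryos, a larger share of liver cells and more RNA per liver cell cannot be told apart, and the litters of a cross differed in mother as well as in age. In Cast × B6 they also differed in sequencing runs, since the younger litter was run as gaIIx and hs1 and the older as hs1 and hs2, so that run and age cannot be told apart there. Both B6 × Cast litters were run as gaIIx and hs1.

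With a slope on somite number and a term for the cross (edgeR's quasi-likelihood test, 13 embryos, Benjamini-Hochberg adjustment over 9649 genes, q under 0.05), 18 of 26 genes tested rose and none fell, where 2.83% of all genes rose and 3.74% fell. The balance over all genes moved with the scaling, from 273 rising and 361 falling to 293 and 240 with DESeq2's size factors and to 615 and 125 with total reads alone, under which 18 and 24 of the 26 genes rose. The slope is given in log2 units per somite. It was 0.10 ± 0.011 (SE) for *Afp* (q = 0.000399), 0.16 ± 0.027 for *Alb* (q = 0.00480) and 0.21 ± 0.054 for *Ahsg* (q = 0.0318). The genes that did not pass had slopes above 0 too, from 0.02 for *Vtn* (q = 0.401) to 0.10 for *Apoa1* (q = 0.0594). The depth of the F1 libraries also reached 6 genes under 5 RPM. Without a filter *Apoh* had a slope of 0.23 ± 0.044 (q = 0.00913) and *Fetub* of 0.14 ± 0.028 (q = 0.0107), while *Gc* and *Apob* missed the threshold (both q = 0.0525). The count rested on the younger B6 × Cast litter: without it 0 of 26 genes passed, with 0 of all genes passing. An unadjusted p under 0.05 was then found for 19 of the 26 and for 2373 of all 9649 genes. Without the youngest Cast × B6 litter 10 of the 26 rose, where 134 of all genes did.

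The N2 embryos covered a narrower range of stages with many more embryos, each of them shallower. At most 45 somites were counted in 21 embryos, 46 to 48 in 45, 49 to 52 in 67, and at least 53 in 14. The level of all 33 genes together had a median of 1808 RPM in the youngest of these classes (lowest 639.8, highest 2760 RPM), then 1967 RPM (881.7 to 3124), 2472 RPM (1073 to 4198) and 3116 RPM (962.4 to 4114) in the oldest. The medians rose from class to class, and the ranges overlapped between all 4.

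Spearman's correlation with somite number (147 embryos, q under 0.05 over 10007 genes) called 19 of the 23 genes tested, all rising, where 14.1% of all genes rose and 7.97% fell. With TMM scaling the balance over all genes moved from 1408 rising and 798 falling to 980 and 1105, and 17 of the 23 genes rose. The median rho was 0.31 over these genes and -0.02 over all genes tested. The 4 genes that missed the threshold were *Fga* (rho = 0.11, q = 0.346), *F2* (0.19, q = 0.0738), *Serpina6* (0.18, q = 0.108) and *Itih2* (0.19, q = 0.0864). Embryos had been sequenced on 14 lanes, 13 of which held embryos of only one kind of mother, and lane accounted for 26.3% to 80.5% of the variance in the ranks of a gene. With lane regressed out of the ranks 22 of 23 genes rose, all but *F10* (q = 0.213), against 8.5% of all genes. With lane as a covariate (edgeR), 20 of 23 genes rose, where 5.06% of all genes rose, and *Fga*, *F2*, *Serpina6* and *Itih2* passed (q = 0.000982, 0.000352, 0.00180 and 0.0170), while *Apoe* (q = 0.244), *F10* (q = 0.127) and *Vtn* (q = 0.0555) did not. Lane accounted for 80.5% of the rank variance of *Vtn*, 73.9% of *Apoe* and 50.4% of *F10*, and also for 59.7% of *Fga* and 52.5% of *F2*, which gained their call. The part of lane in these changes was not tested.

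Litters were in part sequenced together, 19 of the 29 on 1 lane. With litter as a random block (limma voom), 13 of 23 genes rose, against 3.34% of all genes. With 1 mean per litter 4 of 23 rose, where 160 of all 10007 genes did. All 23 slopes were above 0 in both models with single embryos.

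Among the apolipoproteins, *Apoc2*, the cofactor of lipoprotein lipase, had the highest rho of the set. It measured 20.1 RPM at the median in embryos with at most 45 somites (3.91 to 40.5), 29.4 RPM (9.17 to 78.4) and 47.8 RPM (6.14 to 123.5) in the next classes, and 68.8 RPM (3.42 to 127.2) at 53 somites or more. The youngest class was never above 40.5 RPM, and the lowest embryo of the oldest class was lower than all of the youngest. Its rho was 0.59 (q = 7.79e-13), with Pearson's r = 0.56, a permutation p = 1e-05 for both, the smallest that 100000 permutations can give, and r = 0.53 without the 2 embryos farthest from the median stage. The permutations moved somite numbers freely among embryos and took no account of litter or lane. With litter as a random block (limma voom) the q of *Apoc2* was 1.07e-06. With lane as a covariate its slope was 0.21 ± 0.025 per somite, a fold of 4.21 over 10 somites.

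*Apoa1* and *Apoa2*, the main proteins of high-density lipoprotein, rose as well. *Apoa1* had medians of 110.4 RPM (19.0 to 274.1), 163.9 RPM (34.1 to 367.1), 230.2 RPM (73.4 to 529.8) and 344.1 RPM (126.4 to 559.5) in the 4 classes, with rho = 0.54 (q = 1.50e-10), and *Apoa2* had rho = 0.47 (q = 1.11e-07). *Apom*, a carrier of sphingosine-1-phosphate, had rho = 0.46 (q = 3.34e-07) and a slope with lane of 0.11 ± 0.020. *Apoc1* (rho = 0.23, q = 0.0286) and *Apoe*, a ligand of lipoprotein receptors (rho = 0.27, q = 0.00796), were nearer the threshold, and the *Apoe* slope with lane was 0.03 ± 0.014.

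Transthyretin carries thyroid hormone and retinol-binding protein. *Ttr* had medians of 174.9 RPM (65.6 to 337.9), 197.1 RPM (88.1 to 311.2), 285.0 RPM (84.8 to 486.8) and 334.8 RPM (57.1 to 458.8), with rho = 0.57 (q = 1.17e-11, permutation p = 1e-05) and Pearson's r = 0.55. With litter as a random block (limma voom) its q was 0.00797. Of the choroid plexus markers only 3 of 7 reached 5 RPM, 0 of these were called with somite number, and their summed level, a median of 16.4 RPM with B6 mothers and 15.7 RPM with F1 mothers, had a rho of -0.28 with the summed plasma protein genes, and of 0.05 with lane and somite number regressed out.

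In the albumin family, *Afp* had rho = 0.32 (q = 0.000936) and *Alb* rho = 0.32 (q = 0.000984). *Afp* had medians of 222.3 RPM (49.7 to 414.6), 219.7 RPM (39.7 to 665.1), 314.2 RPM (95.2 to 767.3) and 331.6 RPM (92.3 to 729.4) in the 4 classes. *Alb* had medians of 47.3 RPM (6.61 to 141.3), 43.1 RPM (3.19 to 211.9), 83.6 RPM (8.20 to 261.1) and 65.4 RPM (27.1 to 292.3). Neither gene showed a higher median between the first classes, and embryos with the same somite number differed by more than the classes did. With lane, the slope of *Alb*, 0.22 ± 0.040 (q = 1.52e-05), corresponded to a fold of 4.60 over 10 somites, and that of *Afp*, 0.12 ± 0.024 (q = 0.000194), to 2.25.

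**Figure D2:**
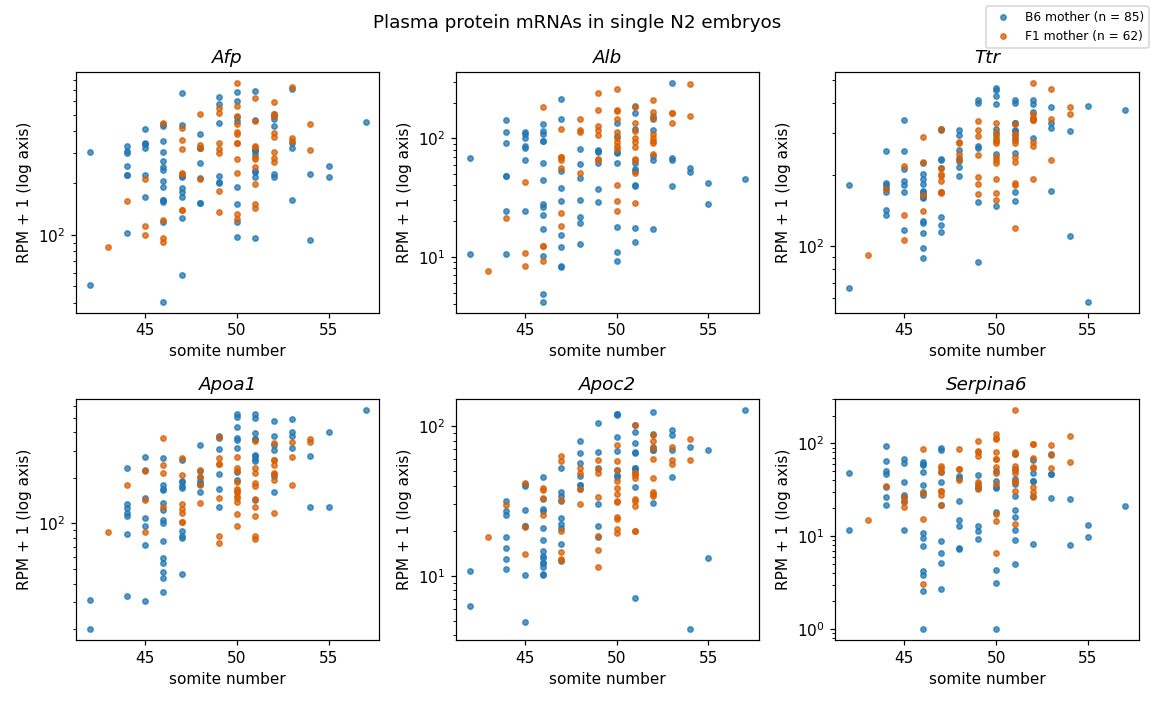
Level of 6 plasma protein genes against somite number in single N2 embryos (RPM + 1, log axis), in blue for the 85 embryos of B6 mothers and in orange for the 62 of F1 mothers. *Ttr*, *Apoa1* and *Apoc2* climbed with somite number (rho from 0.54 to 0.59), whereas *Serpina6* spread widely at every stage (rho = 0.18, not called).

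Among the clotting proteins, *Fgb*, the fibrinogen beta chain, rose (rho = 0.29, q = 0.00333) and *F10*, coagulation factor X, rose (rho = 0.33, q = 0.000910), and prothrombin (*F2*) passed only with lane. Of the serpins, *Serpinc1* (antithrombin, rho = 0.27) and *Serpinf2* (alpha-2-antiplasmin, rho = 0.31) were called. *Serpina6*, the glucocorticoid carrier of plasma, was not, with medians of 26.5, 28.1, 38.2 and 46.0 RPM in the 4 classes. *Itih3*, a heavy chain of the inter-alpha-trypsin inhibitor, had rho = 0.46 (q = 3.54e-07), and *Ambp*, the precursor of its light chain bikunin, had rho = 0.34 (q = 0.000371). *Ahsg* had rho = 0.38 (q = 5.23e-05), hemopexin, the heme scavenger encoded by *Hpx*, had rho = 0.27 (q = 0.00744), vitronectin (*Vtn*) 0.30 (q = 0.00302), and *Hnf4a* 0.29 (q = 0.00356).

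**Figure D3:**
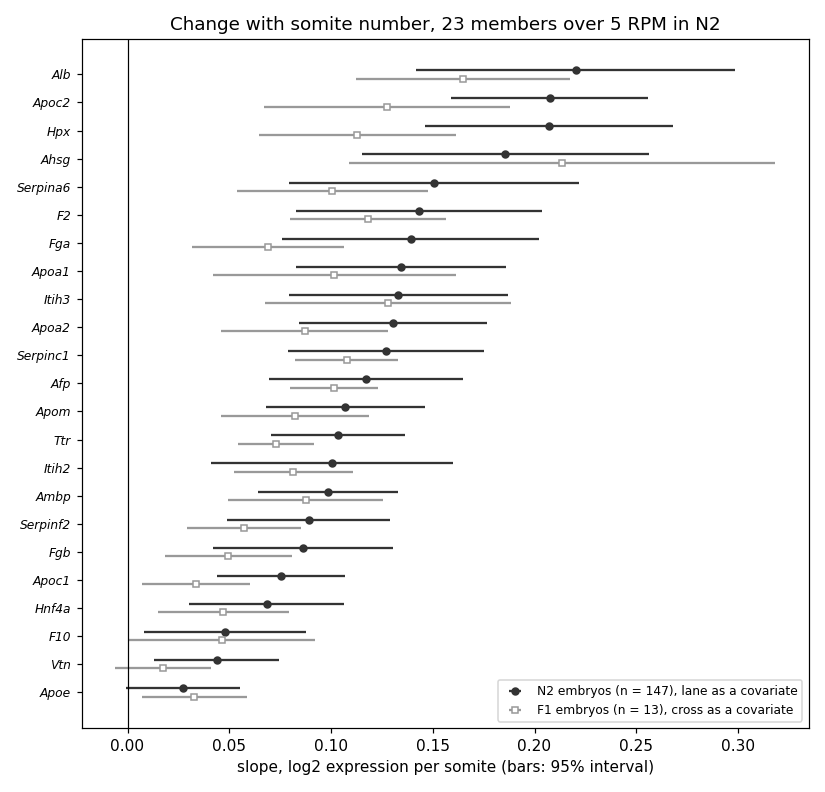
Slope on somite number in log2 units per somite (horizontal axis, bars for the 95% interval) for the 23 genes over 5 RPM in N2, in 147 N2 embryos with lane as a covariate (filled circles) and in 13 F1 embryos with the cross as a covariate (open squares). All estimates were above 0, from 0.03 for *Apoe* to 0.22 for *Alb* in N2 and from 0.02 for *Vtn* to 0.21 for *Ahsg* in F1.

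The correlation was also taken within each kind of mother. Within the 85 embryos of B6 mothers 14 of 23 genes rose, against 16.8% of all genes, and within the 62 embryos of F1 mothers 10 did, against 20.3%. *Ttr* and *Apoc2* were among both, 14.3% of the genes rising with B6 mothers and 20% of those rising with F1 mothers, where 517 of all genes were among both, 30.7% and 25.4%. The rho was 0.71 for *Apoa1* with B6 mothers and 0.28 with F1 mothers, 0.64 and 0.18 for *Itih3*, and 0.50 and 0.10 for *F10*. The order was turned for *Alb*, with 0.07 for B6 mothers and 0.52 for F1 mothers, for *F2*, with -0.09 and 0.52, and for *Fga*, with -0.12 and 0.45. The test of the difference itself depended on lane. With lane in the model 0 of 23 genes had a different slope (edgeR, q under 0.05, 0 at an unadjusted p under 0.05), against 0.00999% of all genes. Without lane 14 did, of which 10 had the steeper slope with B6 mothers. Of all 10007 genes 4467 did so without lane, 1389 of them steeper with B6 mothers and 3078 with F1 mothers. For *Alb* the slopes with lane were 0.20 ± 0.053 for B6 mothers and 0.26 ± 0.056 for F1 mothers, and for *Apoa1* the difference had p = 0.122.

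The levels of the genes in the 154 N2 embryos were then compared with each other. Each gene was correlated with the summed RPM of the other 32, which describes these embryos and was not tested, since the embryos share lanes and litters. The median rho was 0.63 over the 23 genes and -0.11 over the 9984 other genes, and after lane and somite number had been regressed out of the ranks it was 0.52 against -0.02. After this step the lowest value was 0.30, for *F2*, and the highest 0.85, for *Apoc2*. *Ttr*, *Apoa1*, *Apoa2*, *Apom* and *Serpinf2* were also above 0.7.

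The genes differed in how closely they followed *Alb* and *Apoa1*. With lane and somite number regressed out, *Afp* had rho = 0.75 with *Alb* and 0.30 with *Apoa1*, and *Serpina6* had 0.74 with *Alb* and 0.14 with *Apoa1*. *Ahsg*, *Itih2*, *F2*, *Serpinc1*, *Fga* and *Hpx* were likewise closer to *Alb* (0.47 to 0.65) than to *Apoa1* (0.13 to 0.36). *Apoa2* had 0.84 with *Apoa1* and 0.26 with *Alb*, *Apoc2* 0.83 and 0.38, and *Apom* 0.76 and 0.17. *Apoe* and *F10* stood at 0.69 with *Apoa1* and at -0.01 and 0.02 with *Alb*. Other genes lay between, so that no clean division was seen. *Serpinf2* had 0.54 with *Apoa1* and 0.53 with *Alb*, *Fgb* 0.53 and 0.42, *Itih3* 0.55 and 0.38, and *Ambp* 0.52 and 0.35. *Alb* and *Apoa1* had a rho of 0.21 with each other. These 2 genes were chosen as reference points after the correlations were known. The 2 reference genes also parted between lanes. On lane H the median was 16.9 RPM for *Alb* and 284.7 RPM for *Apoa1*, and on lane K it was 78.4 RPM for *Alb* and 73.3 RPM for *Apoa1*.

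**Figure D4:**
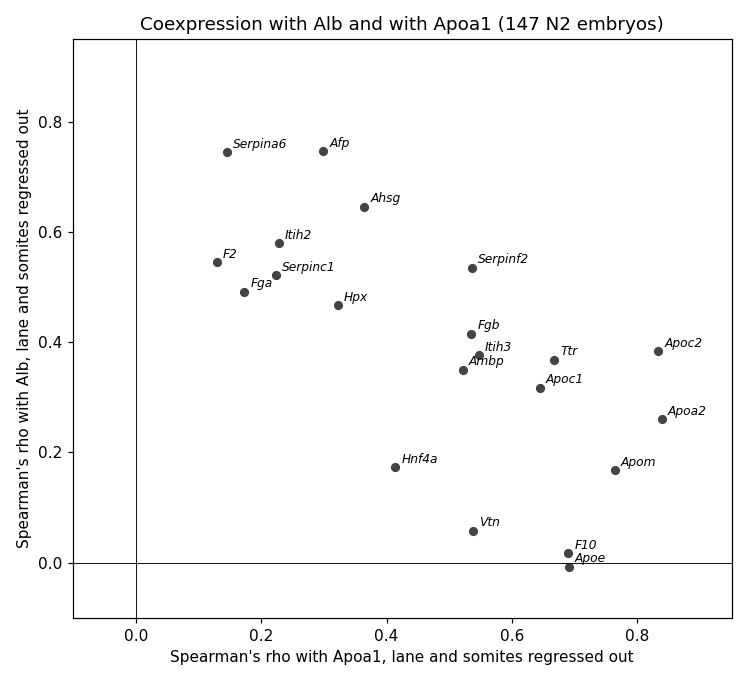
Spearman's rho of 21 genes with *Apoa1* (horizontal axis) and with *Alb* (vertical axis) over 147 N2 embryos, with lane and somite number regressed out of the ranks and each point a gene. *Afp*, *Serpina6* and *Ahsg* lay at the upper left (rho with *Alb* of at least 0.65) and *Apoa2*, *Apoc2* and *Apom* at the right (rho with *Apoa1* of at least 0.76).

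Among the genes outside the set, *Trf*, transferrin, the iron carrier of plasma, was closest to the summed level (rho = 0.84 with lane and somite number regressed out, 243.7 ± 113.6 RPM). It was followed by the complement component *C3* (0.66), *Mylpf* (0.64), *Blvrb* (0.63), *Tspo2* (0.63), the anticoagulant protein C gene *Proc* (0.60), *Cryab* (0.60), *Tnnc2* (0.59), *Tmem176b* (0.59) and the adult globin *Hbb-b2* (0.59). *Mylpf* and *Tnnc2* encode proteins of fast skeletal muscle and *Tspo2* and *Blvrb* are known from red blood cells, so the 10 were not all liver genes.

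A list of 40 other secreted liver proteins had 12 genes over 5 RPM. Of these 8 rose and 0 fell with somite number, where 14.1% of all genes rose and 7.97% fell. Among the 8 were *C3* (rho = 0.62, q = 2.43e-14), *Trf* (0.52, q = 9.85e-10), *Proc* (0.49, q = 2.62e-08), *F12* (0.45, q = 6.01e-07) and *Lcat* (0.39, q = 3.69e-05). Only 3 of 20 liver metabolic enzymes reached 5 RPM and could be tested. Only 3 of 15 hepatoblast transcription factors did so, and 1 rose in N2, *Cebpa* (rho = 0.53, q = 6.72e-10). *Onecut2* (rho = -0.19, q = 0.0791) and *Tbx3* (rho = -0.09, q = 0.427), which are also known from other tissues, were not called in N2. In F1 0 of 5 factors tested rose and 1 fell, where 2.83% of all genes rose and 3.74% fell. The 1 was *Tbx3* (slope -0.04 ± 0.0097, q = 0.0192), and *Cebpa* was not called (0.04 ± 0.019, q = 0.246).

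Lists of other cell types were read beside these results. Of 11 erythroid genes tested, 4 rose and 2 fell with somite number, where 14.1% of all genes rose and 7.97% fell. *Hbb-b2* rose (rho = 0.60, q = 4.49e-13) and the embryonic globin *Hbb-bh1* fell (rho = -0.41, q = 7.32e-06). The summed level of the erythroid genes had a rho of 0.28 with the summed plasma protein genes (0.26 with lane and somite number regressed out). Of 7 macrophage genes 4 rose and 0 fell. With lane as a covariate (edgeR) 2 of the 7 rose, against 5.06% of all genes. In F1 0 of 6 rose, against 2.83% of all genes. In N2 the summed level of the macrophage genes had a rho of 0.67 with the set (0.49 with lane and somite number regressed out). The yolk sac list had 1 of its 5 genes over 5 RPM, *Dab2* (rho = -0.06, q = 0.645), with summed levels from 2.66 to 140.7 RPM and a rho of -0.44 with the set, which was -0.05 with lane and somite number regressed out. None of 8 placenta and decidua genes reached 5 RPM, *Prl3d1*, *Prl2c2*, *Cts7* and *Cts8* were at 0 in all 154 embryos, and the sum was 0 at the median. The part of macrophages and of blood in the levels was not tested.

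The second comparison set embryos of B6 mothers against embryos of F1 mothers (Mann-Whitney test on RPM, 89 against 65 embryos, Bonferroni-adjusted p under 0.01 over 10007 genes). The median somite number was 48 with B6 mothers and 50 with F1 mothers. *Serpina6* and *Hpx* were called, 2 of 23 genes, both higher with F1 mothers, where 4.28% of all genes were higher with F1 mothers and 0.739% with B6 mothers. *Serpina6* ranged from 0 to 92.5 RPM with a median of 26.3 RPM in embryos of B6 mothers, and from 2.06 to 228.3 RPM with a median of 50.6 RPM in those of F1 mothers. The ranges overlapped over most of their length. The means were 29.7 ± 22.6 and 55.5 ± 36.9 RPM (SD), a ratio of 1.87 (adjusted p = 0.00677). *Hpx* ranged from 0 to 19.4 RPM with a median of 5.99 RPM and from 0.825 to 28.8 RPM with a median of 10.4 RPM, a ratio of means of 1.76 (adjusted p = 0.00135).

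Lane and mother could be separated only in part, since 13 of 14 lanes held one kind of mother. Within flowcell 1 the difference for *Serpina6*, F1 minus B6 mothers, was 0.46 on the log2 scale (unadjusted p = 0.0636) and within flowcell 2 it was 1.51 (adjusted p = 0.00163). For *Hpx* the values were 0.75 and 0.64 (unadjusted p = 0.000671 and 0.00604), and neither passed the adjustment. With embryos as the unit, litter mates count as independent. Over litter means *Serpina6* had 27.6 ± 15.7 RPM (SD, 17 litters) and 51.7 ± 23.8 RPM (12 litters) and *Hpx* 6.03 ± 3.38 and 10.6 ± 4.44 RPM. The Mann-Whitney p was then 0.0109 for *Serpina6* and 0.00738 for *Hpx*, and with adjustment no gene of the whole table passed. An unadjusted p under 0.05 was found for 4 of 23 genes in the set and for 1320 of all 10007 genes. Among embryos with 46 to 52 somites *Hpx* was called (adjusted p = 0.00698) and *Serpina6* was not, with a difference of 1.06 on the log2 scale. Without lane A, D or G no gene of the set was called, and without lane B, H, I, L or M *Hpx* alone was. Without lane J the single gene called was *Ahsg* (adjusted p = 0.00416), and without lane E the calls were *Serpina6*, *Alb* and *Ahsg* (adjusted p = 0.000250, 0.00365 and 0.00365). Next in order were *Ahsg* (ratio 1.63, adjusted p = 0.243) and *Alb* (ratio 1.54, adjusted p = 1), and the 6 genes with a Benjamini-Hochberg q under 0.05 were all higher with F1 mothers. At that threshold 3150 of all 10007 genes were called, 1922 of them higher with F1 mothers.

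The third comparison asked whether the B6 and the Cast allele were expressed equally. Reads that covered a SNP gave a vote for one allele, and the B6 allele fraction (BAF) is the share of votes for B6. No vote was recorded for 13 of the 33 genes in any embryo, among them *Alb*, *Apoa1*, *Apoa2*, *Apoe*, *Apoc2* and all fibrinogen chains, so their alleles could not be compared. A further 5 had too few votes. Of the 15 genes tested (a paired test of B6 against Cast votes over F1 and heterozygous N2 embryos, Bonferroni-adjusted p under 0.01 and pooled BAF outside 0.45 to 0.55), 3 were called, where 18.9% of all 9084 genes were. Of the 3, 1 had more B6, against 9.7% of all genes, and 2 had more Cast, against 9.17%.

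*Itih1*, a heavy chain of the inter-alpha-trypsin inhibitor, had the lowest fraction of the called genes. Its BAF ranged from 0.243 to 0.418 in the 8 B6 × Cast embryos and from 0.171 to 0.369 in the 8 Cast × B6 embryos, below 0.5 in all 16. Pooled over F1 and N2 embryos it was 0.297 from 1993 votes (adjusted p = 1.02e-18, Cast higher in 85 of 96 embryos). *Serpina6* had a pooled BAF of 0.414 from 24789 votes (adjusted p = 2.13e-05), with 0.413 ± 0.012 in B6 × Cast and 0.426 ± 0.098 in Cast × B6 (mean ± SD, n = 8 each). *Apom* was the gene with more B6, with a pooled BAF of 0.561 (adjusted p = 3.26e-06, B6 higher in 73 of 86 embryos).

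*Afp* had the smallest p of the set but a fraction inside the window. Its BAF lay between 0.435 and 0.487 in all 16 F1 embryos, and the Cast allele had more votes in 90 of 93 embryos (pooled BAF 0.457, adjusted p = 9.47e-20). *Ttr* (0.532, adjusted p = 2.95e-05), *Itih3* (0.461, adjusted p = 0.00102) and *Ambp* (0.514, adjusted p = 0.00210) likewise passed on p alone. *Apoh* lay at 0.311, outside the window, and missed on p (adjusted p = 0.0195). The mean BAF of the heterozygous N2 embryos was farther from 0.5 than that of the F1 embryos for *Ttr*, with 0.520 ± 0.013 in F1 (n = 16) and 0.584 ± 0.049 in N2 (n = 63), for *Afp*, with 0.458 ± 0.016 and 0.413 ± 0.071 (n = 77), and for *Itih3*, with 0.464 ± 0.049 and 0.416 ± 0.099 (n = 47). *Ambp* had 0.508 and 0.542 and *Apom* 0.552 and 0.567. It was nearer 0.5 in N2 for *Serpina6*, with 0.420 ± 0.068 and 0.440 ± 0.085 (n = 43). *Itih2* had 0.429 ± 0.061 in F1 and 0.536 ± 0.065 in the 7 N2 embryos with at least 20 votes. Pooled over all 70 heterozygous N2 embryos, however, the BAF of *Itih2* was 0.5001. The difference between generations was not tested. By the study's methods, F1 reads were cut to a common length, while N2 reads had only poly(A) trimmed. The oldest F1 litter was also beyond the stages of the N2 embryos. Read length and stage therefore cannot be told apart from generation here. BAF did not pass the test against somite number for any of the 6 genes with enough votes (Spearman, q under 0.1), where 0.297% of all genes passed and 0 of the 6 had an unadjusted p under 0.05. The rho values lay between -0.08 and 0.18.

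**Figure D5:**
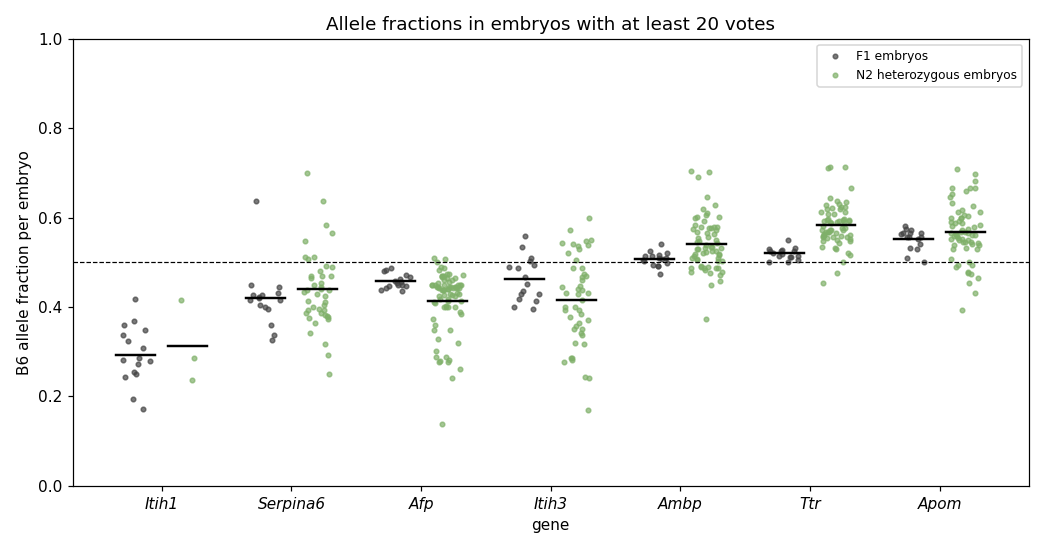
B6 allele fraction per embryo (vertical axis) for 7 genes with points for embryos with at least 20 votes, F1 in grey and heterozygous N2 in green, bars for the mean and a dashed line at 0.5. All 16 F1 embryos lay below the line for *Itih1* and *Afp* and 0 of them for *Ttr* and *Apom*.

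The fourth comparison was between N2 embryos with B6/Cast and with B6/B6 at the gene itself (rank-sum test on log2(RPM + 1) with lane, somite number and 15 principal components regressed out, q under 0.01 over 9762 autosomal genes). It called 8 of 23 genes, where 28% of all genes were called. The heterozygous embryos were higher for 4, *Afp*, *Apoc1*, *Serpina6* and *Itih2* (14.4% of all genes), and the B6/B6 embryos for 4, *Alb*, *Apoe*, *Fga* and *Vtn* (13.5% of all genes). These directions are those of the residuals. For *Fga* the RPM went the other way, with means of 7.01 in heterozygous and 5.91 in B6/B6 embryos against a residual difference of -0.26 on the log2 scale. *Serpina6* ranged from 1.59 to 228.3 RPM with a median of 43.4 RPM in 73 heterozygous embryos, and from 0 to 126.2 RPM with a median of 30.8 RPM in 74 B6/B6 embryos. The residual difference was 0.37 on the log2 scale (q = 5.66e-05), and with the components left out it was 0.57 (q = 0.000317), the only gene of the set still called.

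Neighbouring genes share a genotype, and 2 clusters held genes that moved in opposite directions. *Alb* (chr5:90889915-90905629, mm9) and *Afp* (chr5:90919740-90937933) lie 14.1 kb apart and had the same genotype in all 153 embryos with both calls. *Afp* was 0.19 higher in heterozygous embryos on the log2 scale (q = 0.00650, means of 333.3 and 275.5 RPM) and *Alb* 0.31 lower (q = 6.00e-04, means of 68.8 and 88.8 RPM), while their rho across embryos was 0.75. In the apolipoprotein cluster on chromosome 7, *Apoc1* (chr7:20274833-20278007) was 0.16 higher in heterozygous embryos (q = 0.00147) and *Apoe* (chr7:20281458-20284515), 3.45 kb away, 0.10 lower (q = 0.000461). The test of the difference between neighbours was not run. None of *Afp*, *Alb* and *Apoe* passed without the principal components (q = 0.0685, 0.0614 and 0.440), and *Apoc1* narrowly missed (q = 0.0115).

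The allele votes could be set beside the levels. The B6/B6 level divided by 2 times the heterozygous level would give a BAF of 0.413 for *Afp*, 0.342 for *Serpina6*, 0.425 for *Itih2* and 0.596 for *Vtn*. The pooled BAF of the heterozygous N2 embryos was 0.439, 0.423, 0.5001 and, over 77 votes, 0.519. Of the genes not called by own genotype, *Apom* had 0.547 by level and 0.565 by votes, *Ambp* 0.521 and 0.540, *Ttr* 0.493 and 0.591, and *Itih3* 0.517 and 0.413. These level values came from mean RPM, in which lane and stage were not adjusted for. With them the measures lay on opposite sides of 0.5 for *Ttr* and *Itih3*, while the votes of *Itih2* lay at 0.5. With lane, somite number and the other genes of the set as covariates (edgeR), the value by level was 0.535 for *Ttr*, 0.407 for *Itih3* and 0.417 for *Itih2*. No test of the difference between the measures was run.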

How the data were processed

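Single whole embryos were sequenced by 3SEQ. The authors trimmed poly(A) stretches, mapped reads with Bowtie2 to mm9 and to a Cast genome built from SNPs, and deposited raw counts of reads on exons per gene. They also deposited allele votes, estimated counts that need not be whole (expected counts), and genotype codes read here as B6/B6, B6/Cast or not called. The deposited totals were higher than the mean of mapped reads in the study's methods, for a reason not given in the sources used here. Odd and even counts were about equally frequent. Repeat runs of an F1 embryo stand in 1 deposited column. Of the N2 columns, 8 could not be tied to a sample with a labelled group and were not used, and 6 matched embryos without genotypes entered only the alternatives with all matched embryos.

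Counts were divided by reads on genes to give RPM, reads per 1000000 reads on genes. The tests were Spearman's correlation (somite number), the Mann-Whitney test (mother), a paired t-test on votes scaled by library size, at least 20 per cross (alleles), and the rank-sum test (own genotype), where the first 15 principal components stood in for the hidden factors of the authors' method. Slopes were fitted with edgeR 4.0.16 after TMM normalization, with DESeq2 1.42.0 and limma 3.58.1 as alternatives, and the methods were tested on simulated data. The residual log2 scale understates changes of low genes. Embryos of a litter share a mother and are not independent of each other. All 33 genes were named, with up to 5 genes of smallest p per other list and the 10 others closest to the summed level. Members and lists were chosen with earlier results of these data known. Promoter motifs, neighbouring genes, reference points of the correlations and reciprocal crosses were examined after values were seen. Gene coordinates are those of mm9 in GENCODE M1, and promoters those of GRCm38.p6 in RefSeq. Some results are not reported here.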

Additional observations from a re-analysis of the deposited data

Results flagged for a closer look

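Embryos far from the others of their cross were looked for in 56 sets of 8 F1 levels and 22 sets of F1 allele fractions, in which chance alone marks some sets. The sets of levels pooled both litters of a cross, which differ in age. Replicates 6 and 8 of Cast × B6 belong to the older litter. *Serpina6* measured 84.9 RPM and *Ahsg* 10.8 RPM in replicate 6 of Cast × B6, each the highest of that cross and far above the next embryo, and the same embryo had the highest *Alb* of the cross, 148.8 RPM. The B6 allele fraction of *Serpina6* was 0.638 in replicate 8 of Cast × B6, whereas the other 7 embryos of the cross were below 0.5.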

How the results depend on the processing

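With somite number in N2, 29 of 32 alternatives stayed within 1.5 times the 19 genes called. The others called 10 (F1 mothers), 4 (litter means) and 7 (Bonferroni), where 2032, 160 and 414 of all 10007 genes rose. Leaving out a lane gave 16 to 20, where 972 to 1841 of all genes rose. Genes not called changed sign in rho with B6 mothers (*Fga* -0.12, *F2* -0.094, *Serpina6* -0.083, *Itih2* -0.034) and in flowcell 2 (*Fga* -0.089, *Itih2* -0.012), and *Apoc1* had -0.037 with F1 mothers. For the mother, the 2 calls became 6 at a Benjamini-Hochberg q under 0.05, 5 with edgeR and 8 with DESeq2, where 3150, 3002 and 3367 of all 10007 genes were called. They became 1 in flowcell 2, at 46 to 52 somites, with all matched embryos and without a filter, where 24, 481, 329 and 449 of all genes were called. They became 0 in flowcell 1 and in deeper embryos (216 and 297 of all genes). Over litter means, over litter sums and with litter as a random block they became 0, as over all genes. With a lane left out 0 to 3 were called, against 99 to 986 of all genes. Without lane, 14 slopes differed between mothers, as did those of 4467 of all 10007 genes. Allele calls numbered 1 in F1 and 5 in N2 alone, where the fraction minus 0.5 changed sign for *Gc* (0.0075), *F2* (-0.037), *Plg* (-0.069) and *Itih2* (0.00013). Of all 9084 genes 1105 were called in F1 and 1472 in N2 alone. Own-genotype calls numbered 1, 5 and 4 with 0, 5 and 30 components, 3 with edgeR, 2 with the other genes as a covariate, 3 with B6 and 2 with F1 mothers. In the same order 1772, 2545, 2419, 1682, 1717, 1686 and 1243 of all genes were called, of 9723 to 9782 tested. With a litter left out, 0 to 20 genes of the set rose in F1, against 0 to 872 of all 9649 genes. The causes were not tested. Allele fraction against somite number gave 0 calls in each of 4 alternatives. No paired analysis was possible because replicate numbers only name embryos in accession order. Low depth limits the 10 genes under 5 RPM in N2.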

Other observations

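*Apoa4*, an apolipoprotein known from intestine and yolk sac, was near 0 in most N2 embryos and had reads in 21 of 154. It reached 40.8, 33.96 and 23.3 RPM in replicates 60, 10 and 36 of B6 × F1. The summed yolk sac markers were at 91.3, 19.4 and 9.62 RPM in these embryos, against a median of 8.22 RPM over all 154, and *Afp* was at 159.3, 1098 and 129.9 RPM.

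The B6 allele fraction was also compared between the reciprocal F1 crosses for 11 genes (exact permutation test, two-sided, a comparison added after values were seen). *Plg*, the precursor of plasmin, had 0.561 ± 0.049 in 8 B6 × Cast embryos and 0.408 ± 0.130 in 7 Cast × B6 embryos (exact p = 0.0107, 0.118 after Benjamini-Hochberg adjustment), and *Ttr* had 0.513 ± 0.0076 and 0.527 ± 0.014 (exact p = 0.0235, adjusted 0.129). After adjustment 0 of the 11 genes passed.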
